A study of Mus musculus with 15 samples.

Results

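Newborn mouse ovaries without *Foxl2* were compared with newborn ovaries that carry 1 intact copy of the gene. The comparison took 6 of the 15 arrays of the series, 3 of Foxl2-/- and 3 of Foxl2+/- ovaries, chosen by their genotype and age labels. The remaining arrays hold 3 newborn Foxl2+/+ (wild-type) ovaries and, at 7 days postnatum (7 dpn), 2 arrays of each genotype. For the latter the labels conflict, since title and development stage give the later age while the age field says birth, and title and stage were followed. The design of the series contrasts the 3 genotypes at ages that bracket follicle formation, and the comparison asked which transcripts differ when the last copy of *Foxl2* is lost at the earlier of these ages. All samples came from female mice of the strain labelled NIHS-BC, a mixed background according to the methods. Newborn ovaries came from individual mice, whereas the 7 dpn samples were pools. Both newborn groups carried at least 1 deleted allele, so the control is not an unmodified ovary. Whole ovaries were profiled, and in such samples fewer cells of a type and less RNA per cell cannot be told apart.

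FOXL2 is a forkhead transcription factor of the supporting cells of the ovary, which become the granulosa cells that surround each oocyte. Around birth these pregranulosa cells enclose single oocytes and form primordial follicles. In mice without *Foxl2* this enclosure fails, granulosa cells do not mature, and testis genes such as *Sox9* become active after birth. Heterozygous mice are fertile, while loss of 1 copy in humans causes the eyelid and ovary syndrome BPES.

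On each array the ovary RNA carried Cy3 and a reference RNA pooled from mouse cell lines carried Cy5. A level is given below as the log2 ratio of ovary over reference after normalisation, so that a level of 1 is 2-fold above the reference. A difference is the mean level of the null arrays minus that of the heterozygous arrays, with its standard error (SE) from limma, a linear model fitted across all probes. A probe was called when its Benjamini-Hochberg adjusted p over all probes fell under 0.05. The number of arrays limits the precision, and the median SE of a difference was 0.09 on the log2 scale.

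Array quality overlapped between the groups. The share of probes well above background was 93.2% to 96.5% on the 6 arrays. Correlations across probes ran from 0.932 to 0.954 among null arrays, from 0.948 to 0.959 among heterozygous arrays and from 0.933 to 0.953 between the groups. The tissue label was borne out by the oocyte genes *Figla* and *Nobox*, at levels of 5.56 to 5.87 and 4.34 to 4.67, while the Y-linked *Ddx3y* lay between -3.64 and -3.08. Newborn wild-type replicate 1 stood apart, with correlations of 0.894 and 0.91 to the other wild-type arrays and a mean level of 2.91 over 8 fat tissue genes. It entered this comparison only through the normalisation target and the shared estimate of the spread, and counts are given with and without it.

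The single *Foxl2* probe did not tell the genotypes apart. Its levels were -0.25, -0.26 and -0.30 in the null, -0.26, -0.21 and -0.29 in the heterozygous and -0.29, -0.20 and -0.25 in the wild-type ovaries. The null minus heterozygous difference was -0.02 (SE 0.04, adjusted p = 0.943). Wild-type ovaries, with both copies intact, read no differently from null ovaries, so the probe neither checks nor contradicts the genotype labels. Where it lies relative to the deleted sequence was not tested.

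Loss of the last *Foxl2* copy went with differences in a small share of the transcripts at birth. Of 41005 probes tested, 163 (0.398%) were called, 95 (0.232%) of them higher and 68 (0.166%) lower in the null ovaries. An unadjusted p under 0.05 was reached by 3575 probes (8.72%). On all 163 called probes the 3 null arrays lay to one side of the 3 heterozygous arrays, a separation also seen upward in 8.25% and downward in 8.47% of all probes. The called differences spanned -1.90 to 1.72 on the log2 scale with a median size of 0.64. More falls (21 probes) than rises (11 probes) passed a 2-fold difference. Over all probes the median difference was -0.000469, with deciles at -0.18 and 0.18.

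The number of calls depended on the arrays in the fit. Without newborn null replicate 1, 2 or 3 it was 50, 53 or 77, and without heterozygous replicate 1, 2 or 3 it was 50, 44 or 24. Without wild-type replicate 1 it rose to 244, of which 155 were among the 163. A set of 22 called probes kept the call without each of the 6 arrays in turn, among them *Asb13*, *Coch* and *Sdc2*, which were lower, and *Tpst2*, *Etd*, *Dbi*, *Tac2* and *Cdh15*, which were higher. Of the 34 called results on genes named by rule, that of *Asb13* alone was kept under all 17 other settings tried. *Dbi*, *Tac2* and *Cdh15* were followed only across the arrays left out.

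**Figure D1:**
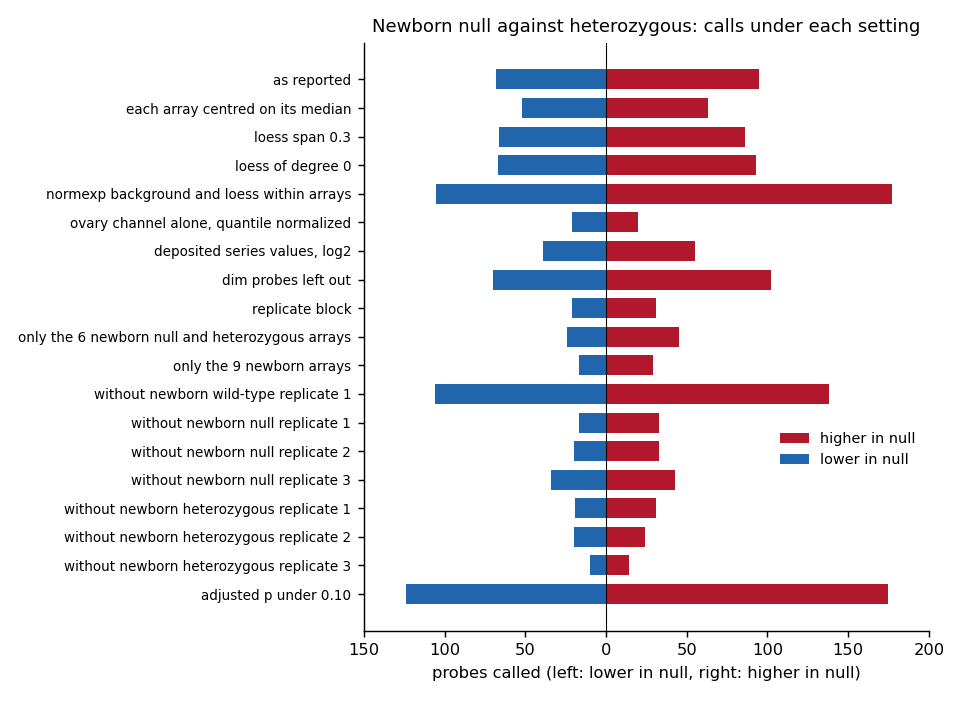
Number of probes called in newborn null against heterozygous ovary (x axis, counts) under each setting (y axis), with probes lower in the null drawn to the left and probes higher to the right. The bars run from 24 calls without heterozygous replicate 3 to 299 at an adjusted p under 0.10, and both directions are present under every setting shown.

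Gene names could be given to 91 of the 163 called probes, covering 54 genes that rose and 34 that fell. The other 72 carry no RefSeq name here and are counted but not described. Among named probes the 15 largest rises and the 15 largest falls were taken, and 29 of these genes are described below, ordered by the role of the gene product. Groups without overlap were a condition of this choice, together with signal well above background on every array of at least 1 of the groups.

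Genes of secreted and cell surface proteins were among the largest falls. *Coch* encodes cochlin, a secreted protein of the extracellular matrix best known from the inner ear. Its levels were -0.28, -0.38 and -0.42 in null against 1.05, 1.04 and 0.98 in heterozygous ovaries, a 2.61-fold difference (log2 -1.38, SE 0.16, adjusted p = 0.00624). *Metrnl*, which encodes a secreted meteorin-like hormone, had null levels of -2.89, -2.21 and -2.48 below heterozygous levels of -1.48, -1.67 and -1.41 (difference -1.01, adjusted p = 0.0297). *Sdc2*, a heparan sulfate proteoglycan of the cell surface, fell by 0.76 (adjusted p = 0.00607), from levels between 0.28 and 0.45 to levels between -0.45 and -0.29. Both *Coch* and *Sdc2* kept the call whichever array was left out, whereas *Metrnl* kept it in 1 of the 6 cases.

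A pair of transporter genes and a receptor subunit gene were among the falls. *Slco3a1*, an organic anion transporter, showed levels of -0.79, -0.87 and -0.45 in null and 0.64, 0.54 and 0.63 in heterozygous ovaries (difference -1.31, SE 0.21, adjusted p = 0.0265). *Slc40a1* encodes ferroportin, which carries iron out of cells. It fell by 0.75 (adjusted p = 0.00958), from 1.91 to 2.10 in heterozygous to 1.04 to 1.45 in null ovaries. *Chrnb1*, the beta subunit of the muscle acetylcholine receptor, fell by 0.55 (adjusted p = 0.017). These calls held in 1, 4 and 1 of the 6 cases of an array left out.

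Genes of signalling, protein turnover and other intracellular functions were also among the falls. *Usp26*, an X-linked deubiquitinating enzyme known from germ cells, showed the largest called fall of a named gene. Its levels were 0.46, 0.71 and 0.91 in null and 2.37, 1.84 and 2.44 in heterozygous ovaries, a 2.87-fold difference (log2 -1.52, SE 0.18, adjusted p = 0.00635). *Asb13* encodes an ankyrin repeat protein with a SOCS box, a part that binds ubiquitin ligases. The null levels of -0.29, -0.48 and -0.31 lay about 1 log2 unit below the heterozygous levels of 0.76, 0.63 and 0.68 (difference -1.05, SE 0.10, adjusted p = 0.00183). *Rgs2*, which shortens signalling through G proteins, had levels of 0.36, 0.53 and 0.63 in null and 1.50, 1.28 and 1.83 in heterozygous ovaries. Its fall of 1.03 was close to the threshold (SE 0.18, adjusted p = 0.0485) and lost the call without any 1 of the 6 arrays. The kinase gene *Camk2b* (difference -0.60), the zinc finger factor *Klf2* (-0.59), the actin nucleator *Cobl* (-0.67) and the sugar phosphate enzyme *Pgm2* (-0.59) also fell, with adjusted p values of 0.0176, 0.0252, 0.0136 and 0.0443. With an array left out, *Camk2b* kept the call in 2 and *Cobl* in 3 of the 6 cases, and *Klf2* and *Pgm2* in none. *H2al2a*, a histone variant of spermatids, fell by 0.74 on its brighter probe (adjusted p = 0.0288, a call kept in 1 of these cases), while its other probe differed by -0.13 (adjusted p = 0.607).

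Secreted signalling molecules were among the rises. *Wnt11*, a secreted Wnt ligand, stood at 2.67, 2.56 and 2.66 in null and at 1.43, 1.59 and 1.47 in heterozygous ovaries, a 2.19-fold rise (log2 1.13, SE 0.17, adjusted p = 0.0204). *Cck* encodes cholecystokinin, a peptide hormone of gut and brain. Its levels of 1.44, 1.17 and 1.51 in null ovaries were 2.04-fold above the heterozygous levels of 0.46, 0.31 and 0.25 (log2 1.03, SE 0.12, adjusted p = 0.00766). *Ccl17*, a chemokine that attracts T cells, rose by 0.93 (SE 0.15, adjusted p = 0.0312), from levels between 0.29 and 0.59 to levels between 1.22 and 1.62. *Cck* kept its call in 4 of the 6 cases of an array left out, *Wnt11* and *Ccl17* in none.

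The *Cck* promoter was the 1 promoter among these genes with a forkhead core. RefSeq promoter windows of 250 bases before to 50 bases after the start were at hand for 24 of the 30 genes. The core TGTTTAC, searched on both strands, was present in 1 of these 24 genes and in 4.05% of 27025 genes with a window. The nuclear receptor motif TCAAGGTCA, a site of NR5A factors, was present in none of the 24 and in 0.466% of all genes. The *Cck* window is shown because it holds the match. It runs from 250 bases before the start to the start itself, at chr9:121495695-121495944 on the minus strand of GRCm38.p6, and capitals mark the core as read on the opposite strand, beginning 35 bases before the start.
Cck: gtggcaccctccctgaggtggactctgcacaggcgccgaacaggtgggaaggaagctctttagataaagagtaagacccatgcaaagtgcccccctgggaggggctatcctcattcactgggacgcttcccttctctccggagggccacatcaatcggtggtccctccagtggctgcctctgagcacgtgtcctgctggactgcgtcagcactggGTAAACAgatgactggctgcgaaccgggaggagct
These letters describe the sequence, and binding at the match was not measured here.

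*Cst9* was first by size among the rises. This member of the cystatin family, known from Sertoli cells of the fetal testis, had levels of 2.43, 2.20 and 2.42 in null and 0.96, 0.84 and 0.83 in heterozygous ovaries, the largest called rise of a named gene (2.77-fold, log2 1.47, SE 0.20, adjusted p = 0.0131). *Etd*, named for embryonic testis differentiation, stood at 1.07, 0.72 and 0.84 in null ovaries and at 0.01, 0.03 and -0.03 in heterozygous ovaries. The rise of 0.87 was among the firmest (SE 0.08, adjusted p = 0.00183), yet the second, brighter *Etd* probe differed by -0.02 (adjusted p = 0.957). *Hsd17b3*, the testicular enzyme that forms testosterone from androstenedione, had levels of 0.63, 0.72 and 0.77 in null and 0.06, 0.14 and 0.03 in heterozygous ovaries on its called probe (difference 0.63, SE 0.08, adjusted p = 0.00958). Its brighter probe differed by 0.28 without reaching the threshold (adjusted p = 0.135). *Spats1*, a gene of spermatogenesis, was well above background on no heterozygous array, so neither a fold nor a difference is given. Its levels were 0.68, 1.26 and 0.92 in null and 0.02, 0.00 and 0.00 in heterozygous ovaries, and it was well above background on the null arrays alone. Its call (adjusted p = 0.0401) was lost without any 1 of the 6 arrays. *Svs6*, a seminal vesicle secretory protein gene, rose by 0.84 (adjusted p = 0.0362). With an array left out, *Cst9* kept its call in 1 of the 6 cases and *Svs6* in none.

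**Figure D2:**
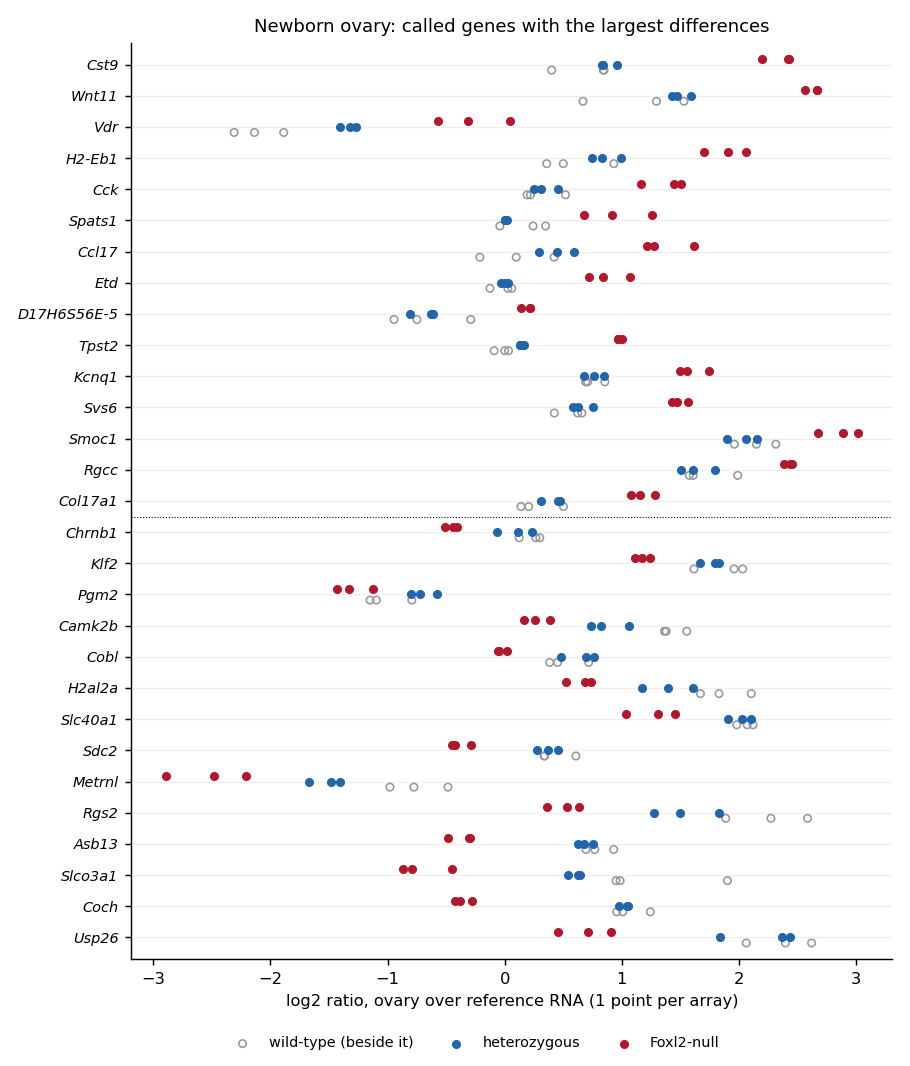
Log2 ratio of ovary over reference RNA (x axis) of 15 named genes with the largest rises (top) and 14 with the largest falls (bottom), 1 point per array for null (red), heterozygous (blue) and wild-type (open) newborn ovaries. By the choice of genes, red and blue points do not overlap for any of the 29; for *Metrnl* the wild-type points lie above the heterozygous points, and for *Vdr* below them.

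Other rises included receptors, channels and enzymes. *Tpst2*, which adds sulfate to tyrosines of secreted proteins, had the smallest adjusted p of a named gene. Its levels were 0.97, 1.00 and 0.97 in null and 0.13, 0.13 and 0.16 in heterozygous ovaries (difference 0.84, SE 0.05, adjusted p = 0.000109), and its second probe rose by 0.66 (adjusted p = 0.00647). *Vdr*, the nuclear receptor for vitamin D, rose on both of its probes, by 1.06 (adjusted p = 0.0136) and by 0.96 (adjusted p = 0.00781). On the first of these the null levels of 0.04, -0.31 and -0.57 spread more widely than the heterozygous levels of -1.27, -1.41 and -1.32. *Kcnq1*, a potassium channel gene, rose by 0.84 on its brightest probe (adjusted p = 0.017), while its other probes differed by 0.04 and 0.54 (adjusted p = 0.961 and 0.443). With an array left out, *Tpst2* kept its call in all 6 cases, and *Vdr* (on the first probe) and *Kcnq1* in 2.

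A few genes of matrix and adhesion proteins were among the rises too. *Smoc1*, a calcium-binding matrix protein, had null levels of 2.67, 2.89 and 3.02 above heterozygous levels of 1.90, 2.06 and 2.15 (difference 0.82, adjusted p = 0.016), with a dimmer second probe at a difference of 0.13 (adjusted p = 0.757). *Col17a1*, a collagen of hemidesmosomes, rose by 0.76 (adjusted p = 0.0448), and *Adamts8*, a secreted metalloprotease, rose by 0.65 (adjusted p = 0.0413). *Rgcc*, a regulator of the cell cycle, rose by 0.79 (adjusted p = 0.0228). None of *Col17a1*, *Adamts8* and *Rgcc* kept the call in any of the 6 cases of an array left out, and *Smoc1* kept it in 1.

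A pair of rising genes lies in the major histocompatibility region of chromosome 17. *H2-Eb1*, a chain of MHC class II, had levels of 1.91, 1.70 and 2.06 in null and 1.00, 0.75 and 0.83 in heterozygous ovaries (difference 1.03, SE 0.14, adjusted p = 0.0136), although its brighter probe differed by 0.14 (adjusted p = 0.258). *D17H6S56E-5* rose from -0.61, -0.63 and -0.80 to 0.14, 0.22 and 0.22 (difference 0.87, SE 0.14, adjusted p = 0.0299). With an array left out, *H2-Eb1* kept its call in 3 of the 6 cases and *D17H6S56E-5* in none. The mice are of mixed background, and whether the groups differ in alleles near these genes or under these probes was not tested. On chromosome 9, which carries *Foxl2* itself, 2 of 709 named genes (0.282%) were called, *Cck* and *Adamts8*, against 88 of 12254 (0.718%) over all chromosomes.

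Genes with a large difference were not always called. *Dhh*, the hedgehog ligand of Sertoli cells, showed levels of 3.20, 2.60 and 3.00 in null and 1.84, 1.35 and 1.43 in heterozygous ovaries. This difference of 1.39 had a wide SE of 0.36 and an adjusted p of 0.18, but without wild-type replicate 1 in the fit it was 1.38 with an adjusted p of 0.025. *Ephx2*, an epoxide hydrolase, differed by -1.03 (adjusted p = 0.0947, and 0.00224 without that array). *Sox9*, the testis-determining factor, stood at -0.41, -0.38 and -0.41 in null and at -0.88, -0.83 and -0.84 in heterozygous ovaries. The groups did not overlap, but the difference of 0.45 was not called (SE 0.11, adjusted p = 0.146), and the second *Sox9* probe differed by -0.01 (adjusted p = 0.99).

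Wild-type levels lay near the heterozygous ones for some genes and beyond them for others. The comparisons with wild-type share arrays with the one above, so their values are only set side by side. For *Tpst2*, *Cst9*, *Coch* and *Asb13* the heterozygous arrays lay within or next to the wild-type range: *Coch* stood at 0.96, 1.24 and 1.01 in wild-type and *Tpst2* at 0.00, -0.09 and 0.03. For *Metrnl* the heterozygous ovary lay between the other genotypes, with wild-type levels of -0.48, -0.78 and -0.98 and a heterozygous minus wild-type difference of -0.77 that reached the threshold only without that replicate (-0.69, adjusted p = 0.034; adjusted p = 0.118 with it). The wild-type levels of *Vdr* were -1.89, -2.14 and -2.31, below the heterozygous ones by 0.78 (adjusted p = 0.084) or, without replicate 1, by 0.92 (adjusted p = 0.004). *Camk2b*, at 1.36, 1.38 and 1.56 in wild-type, differed by -0.56 (adjusted p = 0.0649) and by -0.61 without that replicate (adjusted p = 0.0075). In all, 12 probes (0.0293%) were called in heterozygous against wild-type ovaries and 685 (1.67%) in null against wild-type ovaries, and without wild-type replicate 1 these counts were 2675 and 2959.

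Gene lists were described by their brightest probe per gene, beside the median of -0.000469 over all probes. The list of ovarian genes that the study ties to FOXL2 held 35 measured genes of 48. Of these, 30 were lower and 5 higher in null ovaries, the 3 null arrays lay below all heterozygous arrays for 16 and above for none, and the median difference was -0.23. Of all probes, 8.47% had every null array below every heterozygous array and 8.25% had every one above. The test called 2 of the 35 genes, *Rgs2* and *Ntn4*, beside 0.398% of all probes. The netrin gene *Ntn4* was well above background on none of the 6 arrays, so its difference carries no fold. Its mean level was -0.18 in null, 0.66 in heterozygous and -0.14 in wild-type ovaries, so that the heterozygous arrays stood apart and null and wild-type differed by -0.03 (adjusted p = 0.949). The call on *Ntn4* held in none of the 6 cases of an array left out. *Lrrc4*, a synaptic adhesion gene (difference -1.05, adjusted p = 0.0632), *Smad3*, a transducer of TGF-beta signals (-0.79, adjusted p = 0.0597; 0.00 on a second probe), and *Dkk3*, a secreted protein of the Dickkopf family (-0.76, adjusted p = 0.091), came close to the threshold. *Fst*, the activin antagonist follistatin, spread more widely in null (-0.08, 0.65 and 0.35) than in heterozygous ovaries (0.64, 0.73 and 0.84), with a difference of -0.43 (adjusted p = 0.478). The steroid enzyme *Cyp19a1* (-0.16, adjusted p = 0.931), the KIT ligand gene *Kitl* (-0.13, adjusted p = 0.823) and *Foxl2* itself were not called. The second, dimmer *Cyp19a1* probe stood at 1.06, 0.68 and 0.74 in null and at 1.82, 1.86 and 2.17 in heterozygous ovaries, without overlap. Its difference of -1.12 was not called (SE 0.38, adjusted p = 0.366), whereas at 7 dpn this probe fell by 2.42 (adjusted p = 0.0216). The study chose these genes partly on ovaries of this mutant, and the count is therefore not independent evidence of their direction.

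The genes that the study lists as higher without *Foxl2* held 26 measured members of 33. Of these, 23 were higher and 3 lower in the null ovaries, with a median difference of 0.21, and 12 showed no overlap upward and none downward, against 8.25% and 8.47% of all probes. Calls fell on *Wnt11*, *Adamts8* and *Zbtb7c*, all of them rises, beside 0.398% of all probes called. *Zbtb7c*, a zinc finger gene, had levels of 0.60, 0.65 and 0.69 in null and 0.16, -0.00 and 0.15 in heterozygous ovaries (difference 0.54, SE 0.09, adjusted p = 0.0305), and it kept the call in none of the 6 cases of an array left out. *Nr0b1*, which encodes the orphan receptor DAX1, differed by 0.84 with overlapping arrays (adjusted p = 0.317), and the R-spondin gene *Rspo1* by 0.16 (adjusted p = 0.843). The same reservation on the choice of the list holds here.

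**Figure D3:**
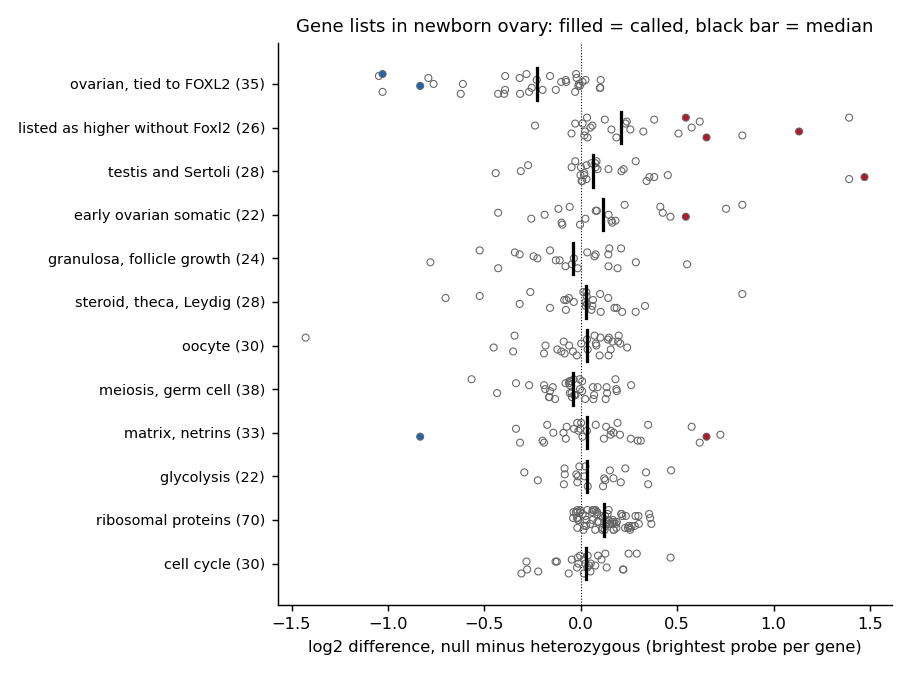
Null minus heterozygous log2 difference (x axis) of each measured gene, by its brightest probe, in 12 gene lists (y axis, number of measured genes in parentheses); filled points are called, and the black bar is the median of the list. The medians of the first 2 lists lie at -0.23 and 0.21, while the other 10 lie between -0.04 and 0.12.

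Of 28 measured genes of 34 for testis determination and Sertoli cells, 22 were higher and 6 lower in null ovaries with a median of 0.07. On the brightest probe 1 gene, *Cst9*, was called, beside 0.398% of all probes. The arrays did not overlap for 7 genes upward and 3 downward, against 8.25% and 8.47% of all probes. The second probe of *Hsd17b3* was called too. *Dmrt1* (0.03, adjusted p = 0.901), *Fgf9* (0.01, adjusted p = 0.983), *Amh* (0.08, adjusted p = 0.909) and *Nr5a1* (0.03), which act in the testis pathway or shared gonad development, were not called. Levels of *Dmrt1* (-0.26 to -0.16), *Fgf9* (0.05 to 0.17) and *Nr5a1* (0.07 to 0.28) lay near the reference on all 6 arrays. Whether these probes report their genes was not tested. Early ovarian somatic genes, the Wnt4 and Rspo1 list, were higher in 14 and lower in 8 of 22 measured genes, with a median of 0.11. The 1 call was *Zbtb7c*, beside the same 0.398% of all probes. Arrays of this list did not overlap for 6 genes upward and 1 downward, against 8.25% and 8.47% of all probes. The Wnt effector *Lef1*, well above background on the 3 null and no heterozygous arrays, was not called (adjusted p = 0.453). *Runx1* differed by 0.41 (adjusted p = 0.153) and *Irx3* by 0.14 (adjusted p = 0.858). *Wnt4*, *Inhbb*, *Thbs1* and *Sohlh1* had no named probe here.

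No granulosa, oocyte or meiosis gene was called, beside 0.398% of all probes. At that share, lists of 24 to 38 measured genes would hold few or no calls. Of 24 measured granulosa and follicle growth genes, 10 were higher and 14 lower in null ovaries, with a median of -0.04, and 7 showed no overlap downward and 1 upward, against 8.47% and 8.25% of all probes. The gap junction gene *Gja1* differed by -0.78 (adjusted p = 0.559) and the estrogen-forming *Hsd17b1* by -0.52 (adjusted p = 0.621), and without wild-type replicate 1 these reached adjusted p values of 0.0257 and 0.0386. Of 30 measured oocyte genes 17 were higher and 13 lower, with differences from -1.43 to 0.24. The arrays did not overlap downward for 4 of them and upward for none, beside the same shares of all probes. Their transcription factors *Figla* (0.07), *Nobox* (0.16) and *Lhx8* (-0.08), the growth factor *Gdf9* (-0.35) and the zona pellucida gene *Zp3* (-0.18) all had adjusted p values above the threshold. *Oog1*, a gene of early oocytes, spread from 1.37 to 2.39 in null and from 2.94 to 3.56 in heterozygous ovaries (difference -1.43, SE 0.51, adjusted p = 0.41). Meiosis genes were higher in 14 and lower in 24 of 38, with *Sycp3* at 0.18 and *Dmc1* at -0.04. Their arrays did not overlap for 2 genes upward and 3 downward, beside the same shares of all probes. Several of the smaller medians changed sign under other settings, the oocyte list in 4 of 18 and the meiosis list in 1 of 18.

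Steroid, matrix and housekeeping lists were also largely uncalled, beside 0.398% of all probes called. Of 28 measured genes of steroid synthesis, theca and Leydig cells, none was called on its brightest probe. *Cyp17a1* differed by 0.06 and *Akr1c18*, a progesterone-degrading enzyme, by -0.70 (adjusted p = 0.403; -0.08 on a second probe), while *Cyp11a1* was well above background on 1 null and 1 heterozygous array. In the matrix list 19 of 33 genes were higher, with *Adamts8* and *Ntn4* as the calls. The arrays did not overlap for 12 genes upward and 3 downward, against 8.25% and 8.47% of all probes. *Eln*, which encodes elastin, differed by 0.72 (adjusted p = 0.105, and 0.0397 without wild-type replicate 1), while *Thbs2* differed by -0.08. Glycolysis genes (22 measured, median 0.03) and cell cycle genes (30 measured, median 0.03) had no call.

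Ribosomal protein genes showed small differences, mostly of 1 sign. All 70 listed genes were measured, and 57 were higher and 13 lower in null ovaries, with a median difference of 0.12. Their mean level was 0.26 to 0.32 in null and 0.14 to 0.19 in heterozygous ovaries, without overlap of the arrays. For 32 of the genes the null arrays lay above all heterozygous arrays, against 8.25% of all probes, and for none below. No single gene was called, and the closest, *Rpl26*, differed by 0.30 (adjusted p = 0.0665). The wild-type arrays spanned 0.11 to 0.30, which covers the heterozygous arrays and part of the null range. Across 18 other settings the median kept its sign and ran from 0.03 to 0.14. At 7 dpn the median was -0.05.

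None of the 11 lists of markers held a call, beside 0.398% of all probes. At that share, lists of 3 to 15 measured genes would hold few or no calls, so their absence says little. Macrophage and leukocyte genes had a median difference of -0.15, with 7 of 11 lower and 3 of these without overlap, against 8.47% of all probes (its sign turned under 1 of 18 other settings), and their mean level lay between -0.59 and -0.48 in null and between -0.49 and -0.40 in heterozygous ovaries. Immediate early and heat shock genes, which react to the handling of tissue, were lower in 11 of 12 with a median of -0.11. For 5 of the 12 every null array lay below every heterozygous array, against 8.47% of all probes, and for none above, and their mean level lay between -1.75 and -1.54 in null and between -1.54 and -1.50 in heterozygous ovaries. The part of either list in the calls above was not tested. The median was 0.12 for endothelium, 0.07 for stroma, 0.02 for red blood cells, 0.01 for surface epithelium and oviduct, 0.00 for adrenal gland, 0.03 for skeletal muscle and -0.03 for fat. Of these medians, all but those of endothelium and fat turned sign under at least 1 other setting. In the fat list *Cidea*, a lipid droplet protein, stood at 1.85, 2.27 and 2.24 in null and at 0.70, 0.73 and 0.81 in heterozygous ovaries, but its SE of 0.66 left it uncalled (adjusted p = 0.604).

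Most newborn calls had the same direction at 7 dpn, in other arrays of the same genotypes. Of the 163 called probes, 151 had a difference of the same sign at 7 dpn, 92 of the 95 higher and 59 of the 68 lower ones. At 7 dpn 901 probes (2.2%) were called, 428 (1.04%) higher and 473 (1.15%) lower. Called at both ages were 113 probes, which is 69.3% of the newborn calls and 12.5% of the 7 dpn calls, and 111 of them had the same direction. The ages share no array, but they share the estimate of the spread and the normalisation target, and the 7 dpn RNA came from pooled mice.

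Single genes showed the size of the difference at each age. *Ccl17* differed by 2.04 at 7 dpn (adjusted p = 0.000322) and *Smoc1* by 1.66 (adjusted p = 0.00024), against 0.93 and 0.82 at birth. *Cst9* (1.45), *Wnt11* (1.09) and *Asb13* (-0.95) had 7 dpn differences close to their newborn ones. *Coch*, with a newborn difference of -1.38, stood at -0.75 at 7 dpn and was not called there (adjusted p = 0.0904), nor were *D17H6S56E-5* (0.27), *Rgcc* (0.29), *Sdc2* (-0.36) and *Camk2b* (-0.31). A test of the change in difference between the ages called none of the genes of this paragraph.

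In null against heterozygous ovaries, further genes passed the threshold at 7 dpn but not at birth with all arrays in the fit. *Sox9* differed by 1.33 at 7 dpn (adjusted p = 0.000645), *Amh* by -0.67 (adjusted p = 0.0243), *Hsd17b1* by -2.53 (adjusted p = 0.00203) and *Gja1* by -1.96 (adjusted p = 0.039). At birth *Sox9* was called in null against wild-type ovaries (0.76, adjusted p = 0.00615). The newborn differences of *Gja1* and *Hsd17b1* passed the threshold without wild-type replicate 1. The granulosa list went from a median of -0.04 at birth to -0.26 at 7 dpn, with 6 of its 24 genes called lower at the later age, and the oocyte list from 0.03 to -0.20, with 8 of 30 called lower, against 1.15% of all probes. None of these 4 genes was called in the test of the difference between the ages.

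That test called 19 probes (0.0463%), with 7.13% of probes at an unadjusted p under 0.05, and 12 of them carried a gene name. Of the 19, 5 were among the newborn calls. *Chrnb1* was the clearest, since it fell at birth and rose at 7 dpn. Its levels were -0.51, -0.44 and -0.41 in null and -0.06, 0.12 and 0.23 in heterozygous newborns, but 0.40 and 0.56 in null and -0.45 and -0.37 in heterozygous ovaries at 7 dpn (newborn minus 7 dpn change -1.44, SE 0.13, adjusted p = 0.00404). *Bid*, a pro-apoptotic member of the BCL2 family, likewise fell by 0.36 at birth and rose by 0.45 at 7 dpn. *Prkcb*, a protein kinase C gene, rose at both ages, by 0.35 and 1.12.

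**Figure D4:**
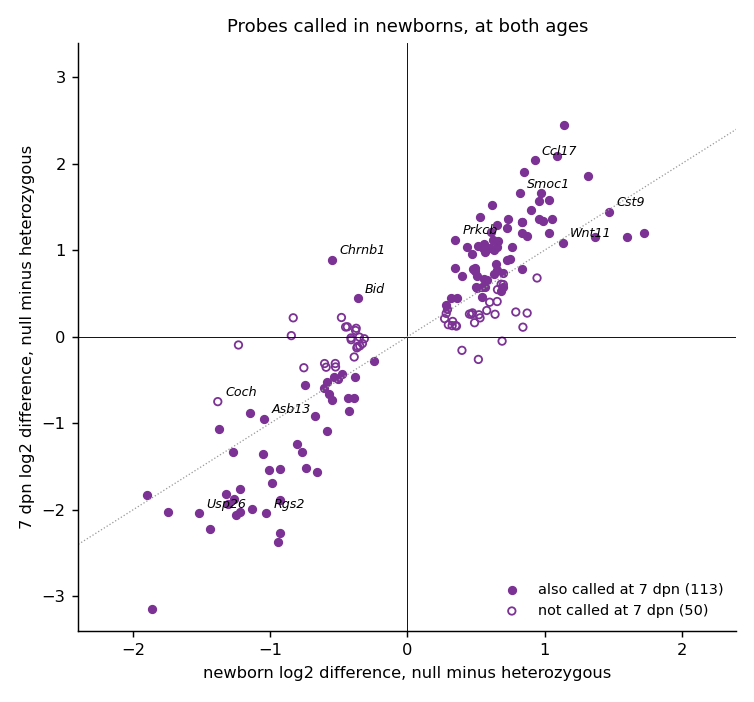
Null minus heterozygous log2 difference at 7 dpn (y axis) against that in newborns (x axis) for the 163 probes called in newborns, 1 point per probe, with the dotted line marking equal differences. Filled points (113) were called at 7 dpn too; most points have the same sign on both axes, and *Chrnb1* and *Bid* are the named filled points with opposite signs.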

How the data were processed

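Ovary RNA (Cy3) and reference RNA (Cy5) were hybridised to Agilent 2-colour arrays, with no dye swap. Per the file headers, the authors used Agilent Feature Extraction A.7.5.1, which subtracted background, corrected spatial trends and balanced the dyes by LOWESS, and deposited processed intensity values for both channels with a log10 ratio of red over green. The authors also deposited a table of series values (intensity, linear), used here as an alternative. The direction came from the dyes named in the labels: log2 of ovary over reference was computed from the processed intensities, and it correlated with the turned deposited log10 ratio at 0.991 or above on every array.

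Control spots (2396 per array) and outlier spots (7 to 100 per array) were left out and spots were averaged to 41006 probes. Each array was normalised by loess (span 0.01, degree 1) against the mean of the 15 arrays. limma 3.58.1 in R 4.3.3 fitted 1 mean for each of the 6 groups (9 residual degrees of freedom) with empirical Bayes and Benjamini-Hochberg adjustment over all probes. The scoring program named in the methods was replaced by limma, which was tested on simulated data. Accessions named 15294 probes of 12254 genes through the RefSeq table (GRCm38.p6). The genome build of the arrays is not given in the sources used here, so no gene coordinates are printed apart from the RefSeq promoter window of *Cck*.

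Members and gene lists were chosen with earlier results of these data known. Named genes are the 15 largest called and non-overlapping differences in each direction with signal well above background on every array of at least 1 group, called list members or otherwise up to 4 largest members of a list, and a set of gonad genes whatever their values. A result that meets this rule is not reported here. *Dbi*, *Tac2*, *Cdh15* and the 12 genes that differ between ages were named after their values were seen. The labels do not say whether replicates were separate litters, so the p-values measure only the spread between these samples. Alternatives covered normalisation, background, channel, filter, arrays in the fit, a replicate block and the threshold.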

Additional observations from a re-analysis of the deposited data

Results flagged for a closer look

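The null minus heterozygous difference changed between the ages for 12 named genes, by limma's test of the change itself over all probes. The change is given as newborn minus 7 dpn on the log2 scale. It was -1.44 for *Chrnb1* (adjusted p = 0.00404), -1.31 for *Pde6h* (adjusted p = 0.00601), -1.32 for *Sema3a* (adjusted p = 0.0147) and -1.41 for *Krt20* (adjusted p = 0.015). It was -0.85 for *Pcgf5* and -0.81 for *Epb41l3* (both with adjusted p = 0.0206), -0.81 for *Bid* (adjusted p = 0.0221) and -0.77 for *Prkcb* (adjusted p = 0.0266). *Scg5* (-0.98), *Il17rc* (-0.64) and *Pkp1* (-2.03) shared an adjusted p of 0.033, and *Olfr365* was the 1 gene of the 12 with a positive change (0.60, adjusted p = 0.0287).

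For most of these genes the newborn difference was small and not called. *Pkp1*, a desmosome gene, differed by 0.15 in newborns (adjusted p = 0.878) and by 2.19 at 7 dpn, and *Sema3a*, a guidance cue of axons, by -0.07 (adjusted p = 0.891) and 1.25. *Pde6h* differed by -0.10 and 1.21, *Epb41l3* by 0.13 and 0.94, *Scg5* by -0.12 and 0.86, *Il17rc* by -0.06 and 0.58, and *Olfr365* by -0.06 and -0.66. *Krt20* (-0.41 and 1.00) and *Pcgf5* (-0.30 and 0.55) had opposite signs at the ages without a call in newborns, while *Chrnb1* and *Bid* were called at both ages with opposite signs. The number of probes called for a change between ages was 19 as reported, 155 without newborn wild-type replicate 1, 6 to 8 with 1 of the 6 newborn null and heterozygous arrays left out, 5 with median centring and 4 with a replicate block. By limma on the ovary channel alone it was 0, with 1347 probes at an unadjusted p under 0.05. Among 15 other settings *Chrnb1* kept its call in 14, *Pde6h* in 13, *Krt20* in 12, *Sema3a* in 11, *Pcgf5* in 10, *Prkcb* in 9 and *Scg5* in 8. *Olfr365* and *Epb41l3* kept theirs in 7, and *Bid*, *Il17rc* and *Pkp1* in 5. The 7 dpn RNA was pooled, and the part of pooling in these changes cannot be told apart from age.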

How the results depend on the processing

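The 163 called probes kept their sign under every alternative that measured them except the ovary channel alone, where 162 did, and the filter on dim probes left 160 of them. Against 163 calls (95 higher, 68 lower), 901 calls at 7 dpn and 19 between the ages, normexp background with loess within arrays gave 282 (177 and 105), 1364 and 108, and the ovary channel alone gave 41 (20 and 21), 308 and 0. The deposited series values gave 94 (55 and 39) and 12 between the ages, centring on the median 115 (63 higher) and 5, and an adjusted p under 0.10 gave 299 (175 and 124) and 53. A fit of the 6 newborn null and heterozygous arrays gave 69 (45 and 24) and one of the 9 newborn arrays 46 (29 and 17), and neither gives a value for 7 dpn or between the ages. Without newborn wild-type replicate 1 there were 244 calls (138 and 106), and 155 between the ages. Leaving out 1 of the 6 arrays, with the rest normalised again, gave 24 to 77 calls, 14 to 43 of them higher and 10 to 34 lower, 727 to 851 at 7 dpn and 6 to 8 between the ages. A loess span of 0.3, a degree of 0 and a filter on dim probes gave 152, 160 and 172.

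Replicate numbers did not pair the arrays: deviations from the group mean correlated at -0.08, 0.11 and -0.04 between same-numbered null and heterozygous arrays. The fit with a replicate block gave 52 calls (31 and 21), 620 at 7 dpn and 4 between the ages. A block for scan day or slide could not be fitted, since the newborn arrays share 1 day and each has its own slide.

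Of 34 called results on named genes none reversed, and between 5 (ovary channel alone) and 34 kept the call under a given setting. Uncalled genes did reverse, and the cause was not tested. Centring on the median gave *Fgf9* -0.0021 and *Nr5a1* -0.0045, and normexp gave *Sgms2* 0.023 and *Sycp3* -0.036. The ovary channel alone gave *Eno1* -0.055, *Slc34a2* 0.022, *Figla* -0.095, *Amh* -0.0055, *Fgf9* -0.12, *Cyp19a1* 0.12, *Cyp11a1* 0.025, *Nobox* -0.29, *Foxl2* 0.063, *Sycp3* -0.39 and *Nr5a1* -0.052. The series values gave *Figla* -0.12, *Nobox* -0.31, *Sycp3* -0.38 and *Nr5a1* -0.00020. With 1 of the 6 arrays left out, the ranges that crossed 0 were -0.76 to 0.00016 for *Tdrd1*, -0.086 to 0.066 for *Dmc1*, -0.029 to 0.052 for *Fgf9*, -0.16 to 0.073 for *Sgms2*, -0.59 to 0.15 for *Cyp11a1*, -0.041 to 0.23 for *Akr1c14* and -0.011 to 0.086 for *Nr5a1*.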
